A study of Mus musculus with 4 samples.

Results

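The nuclear genes that encode oxidative phosphorylation subunits were compared between both array groups of a mouse embryonic stem (ES) cell differentiation study. Members were all probe sets with a single platform gene symbol beginning Nduf, Uqcr or Atp5, a symbol from Sdha to Sdhd, a symbol beginning Cox and the digits 4 to 8, or the symbols Cyc1 and Cycs. This rule uses names and no measured value. It took 101 of 12422 probe sets and 73 of 8251 genes with a single symbol. These were 29 genes of complex I, 4 of complex II, 8 of complex III, the gene of cytochrome c, 14 of complex IV and 14 of complex V. The remaining 3, Ndufaf1, Ndufaf4 and Cox7a2l, carry such a name but act in assembly or in joining complexes. A further 10 probe sets that match a member symbol together with a pseudogene or near-identical copy were left out. None of them passed the threshold used below. Their log2 changes (Hemangioblast-titled minus hCD4-titled arrays) ran from -1.04 (Ndufb4 with its copies) to 0.76 (Atp5md with Gm35857).

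The series holds 4 one-colour oligonucleotide arrays, 2 titled Hemangioblast and 2 titled hCD4. All cells came from an ES line, Scl+/hCD4, in which human CD4 reports the Scl gene. The line was kept on STO feeder cells with LIF, moved to gelatin, and differentiated with serum for 2.75 days. The study text names as its populations Flk-1+Scl+ cells sorted from day 2.75 embryoid bodies (called hemangioblast) and blast colonies picked and pooled after replating. The source fields instead give cultured hemangioblasts for the arrays titled Hemangioblast and cultured hCD4 ES cells for those titled hCD4. Titles and text therefore do not settle which population each title names, and the groups are called here by their array titles only. Nothing in the labels states whether replicate arrays derive from independent cultures, so the p-values reflect array-to-array spread alone, possibly technical. With 2 arrays in each group, precision is limited by the number of arrays.

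Several marker lists had median log2 changes (Hemangioblast-titled minus hCD4-titled) larger in size than that of the members (0.10). The medians were 3.78 for myeloid, 1.47 for erythroid, -0.68 for hemangioblast and endothelial and -0.44 for pluripotency markers. For fibroblast and feeder markers the median was 0.02. The lists were chosen with earlier results of these data known, so their distance from the members is no independent comparison. Calls in this paragraph are genes past an adjusted p of 0.05 in the limma fit described below, as were 5.36% of all genes. All 10 myeloid markers had higher mean values in the Hemangioblast-titled arrays, and 9 were called. Their summed intensity was 8083 and 9347 there, against 491 and 481 in the hCD4-titled arrays. All 7 measured erythroid markers had higher mean values and 6 were called, with sums of 37149 and 39584 against 12772 and 13490. Of 8 hemangioblast and endothelial markers, 7 had lower mean values and 3 of these were called, namely Kdr (Flk-1), Etv2 and Gata2. Tal1, Lmo2, Cdh5 and Tek were lower without a call, and Pecam1 was higher without a call. The sums were 3860 and 3829 against 6460 and 7756. Of 8 pluripotency markers 7 had lower mean values and 2 of these, Pou5f1 and Dppa5a, were called. The sums of the 8 were 1323 and 1362 against 4345 and 2369. Of 7 fibroblast and feeder markers, 4 had higher and 3 lower mean values. Col3a1 was called higher and Fbln2 called lower, and the sums of the 7 were 2046 and 2365 against 2223 and 2036. No marker was listed at 0 on any array, but 144 to 159 probe sets on each array were deposited at exactly 1. Fcer1g on hCD4 replicate 1 was one of these. The absence of 0 therefore does not show that a marker was detected. The part of this difference in cell content in the member values below was not tested. In such bulk RNA, fewer cells of a type and less RNA per cell cannot be told apart.

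Oxidative phosphorylation passes electrons from NADH (through complex I) and succinate (through complex II) to ubiquinone, then through complex III, cytochrome c and complex IV to oxygen. Complexes I, III and IV pump protons across the inner mitochondrial membrane, and complex V, the ATP synthase, uses the gradient to make ATP. Most subunits are encoded in the nucleus, and the transcription factors NRF1 and NRF2 (GABP) are known regulators of many of these genes. Several complex IV subunits exist as isoforms made from separate genes in different tissues.

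Promoter sequence was available in RefSeq (GRCm38.p6) for 59 of the 73 genes, as windows from 250 bases before to 50 after the annotated start. The NRF1 core GCGCANGCG, searched on both strands, was present in the windows of 16 of these genes, or 27.1%. It was present in 6.25% of all 32851 promoter windows and in 13.2% of the 6572 measured genes with a window. The 16 genes comprised 4 of 26 in complex I, 2 of 3 in complex II, 2 of 4 in complex III, Cycs, 1 of 10 in complex IV, 5 of 12 in complex V and 1 of 3 in the assembly class. The GABP core CCGGAAGT was present in 4 genes (6.78%), against 3.89% of all windows and 7.81% of measured genes. Both are descriptions of letters in a window, not of bound sites.

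The 250 bases before the start are printed 5′ to 3′ on the gene's strand for 4 genes, with matches to the NRF1 core in capitals. Cycs and Sdha are shown because both hold a match while their array values lay on opposite sides. Cox6b2 and Cox6b1 are shown because the probe sets named for these isoforms of one subunit gave the widest separation among the paralog pairs. The gene behind each of these signals is uncertain, as described below. Cycs lies at chr6:50566570-50566819 (minus strand), with its match on the opposite strand, 61 to 53 bases before the start. Sdha lies at chr13:74350241-74350490 (minus strand), with 3 matches that begin 98, 55 and 10 bases before the start. Cox6b2 lies at chr7:4753095-4753344 and Cox6b1 at chr7:30626115-30626364, both on the minus strand and neither with a match to either core.
Cycs: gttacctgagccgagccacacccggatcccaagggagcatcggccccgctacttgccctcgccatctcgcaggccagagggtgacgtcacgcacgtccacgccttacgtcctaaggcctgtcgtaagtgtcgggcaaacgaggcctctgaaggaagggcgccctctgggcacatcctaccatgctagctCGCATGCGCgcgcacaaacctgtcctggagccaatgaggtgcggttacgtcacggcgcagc
Sdha: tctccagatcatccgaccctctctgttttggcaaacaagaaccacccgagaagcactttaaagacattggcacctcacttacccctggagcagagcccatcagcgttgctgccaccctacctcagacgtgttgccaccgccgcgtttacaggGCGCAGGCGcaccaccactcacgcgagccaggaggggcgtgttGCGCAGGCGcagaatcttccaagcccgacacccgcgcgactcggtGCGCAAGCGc
Cox6b2: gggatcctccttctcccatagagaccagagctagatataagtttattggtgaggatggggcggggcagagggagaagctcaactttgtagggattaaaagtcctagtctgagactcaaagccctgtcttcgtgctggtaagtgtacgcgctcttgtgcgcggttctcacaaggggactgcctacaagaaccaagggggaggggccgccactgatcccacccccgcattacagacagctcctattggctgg
Cox6b1: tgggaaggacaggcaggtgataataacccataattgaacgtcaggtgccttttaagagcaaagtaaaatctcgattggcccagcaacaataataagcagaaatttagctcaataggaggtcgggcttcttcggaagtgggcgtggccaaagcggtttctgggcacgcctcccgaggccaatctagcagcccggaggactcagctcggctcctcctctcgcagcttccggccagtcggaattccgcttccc
The median log2 change was 0.12 over the 16 genes with an NRF1 match and 0.09 over the 43 without one. The range of changes among genes with a match ran from -0.54 (Ndufaf4) to 0.57 (Sdha).

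Transcripts of the respiratory chain differed little between the groups. With 1 probe set for each gene, 0 of 73 member genes passed an adjusted p of 0.05 in limma, whereas 442 of 8251 genes did (5.36%). Of the 101 member probe sets 1 passed (0.990%), an additional probe set of Cox6b2, against 556 of 12422 (4.48%). At an unadjusted p under 0.05, 6 of 73 members (8.22%) were found, against 18.2% of all genes. These 6, all with higher values in the Hemangioblast-titled arrays, were Ndufv3, Cox6b2, Ndufa3, Ndufa6, Uqcrc2 and Uqcrb. A stricter size rule, 2-fold or more in 1 direction for each of the 4 between-group array pairs, was met by 0 of 73 member genes and by 4.14% of all genes. Among all 101 member probe sets it was met by 2 (1.98%), additional probe sets of Cox6b2 and Cox5a, against 4.14% of the 12422. The count of 0 thus holds for the representative probe sets.

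The intervals of the members were narrow as well as centred near 0. Values are log2 of scaled intensity plus 16, and a change is the Hemangioblast-titled mean minus the hCD4-titled mean. On the representative probe sets the changes ran from -0.54 (Ndufaf4) to 0.82 (Ndufv3), and their median was 0.10 over the members against 0.02 over all genes. The 95% interval lay within 2-fold in both directions for 67 of 73 members (91.8%), against 65.2% of all genes. It lay within 1.5-fold for 34 members (46.6%), against 17.9% of all genes. The 6 members whose interval reached past 2-fold were Ndufv3, Sdha, Cox4i1, Cox5a, Cox6b2 and Ndufaf4. The median standard error was 0.18 over the members and 0.25 over all genes, and brighter probe sets have smaller errors on this scale. Among members with a mean scaled intensity of 300 or more, 54 of 56 intervals lay within 2-fold (96.4%), against 82.4% of 3802 genes as bright. Within 1.5-fold the shares at this brightness were 58.9% and 36.0%. The median standard errors there were 0.17 and 0.18, so they differed less than over all levels.

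**Figure D1:**
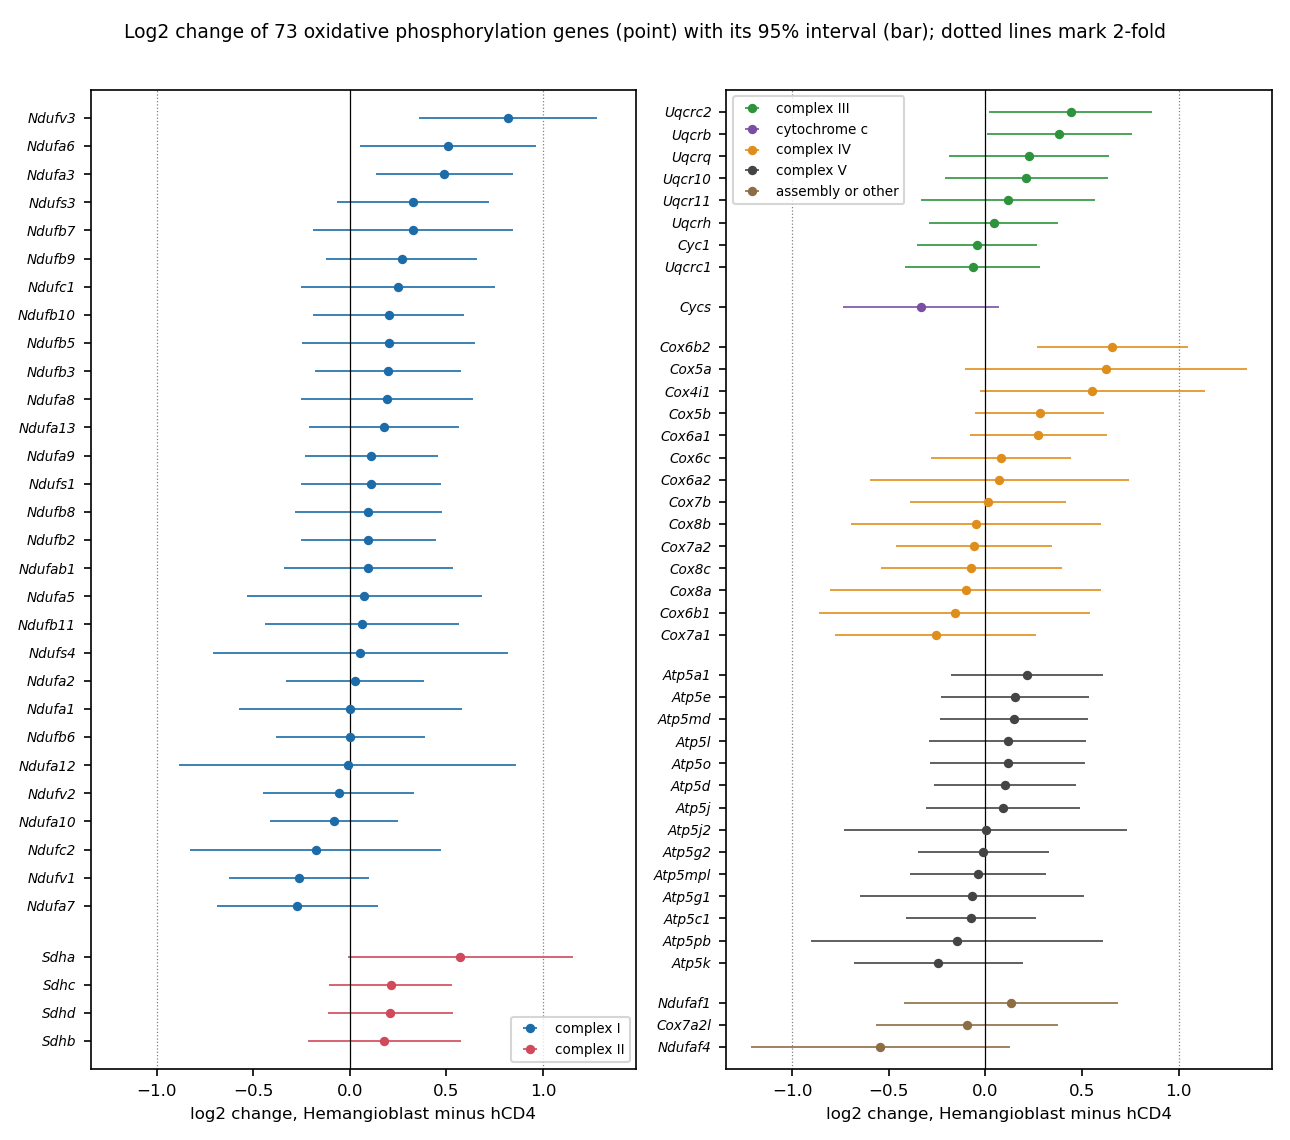
Log2 change (Hemangioblast-titled minus hCD4-titled arrays, 2 arrays each) of each of the 73 member genes, coloured by complex; points are fitted changes, bars are 95% intervals and dotted lines mark 2-fold. Most intervals cross 0 and lie between the dotted lines, and 6 of the 73 reach past them.

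The changes leaned to the positive side. A positive change was found for 50 of 73 members (68.5%) and for 52.6% of all genes. Both Hemangioblast-titled arrays exceeded both hCD4-titled arrays for 17 members (23.3%), close to the 24.5% of all genes. The reverse order was found for 6 members (8.22%), against 22.0% of all genes. In the remaining 50 members the groups overlapped. The median change was 0.10 in complex I, 0.21 in complex II, 0.17 in complex III, 0.04 in complex IV, 0.05 in complex V and -0.10 in the assembly class. With arrays scaled on their medians, the median change became 0.01 over all members, -0.04 in complex IV and -0.03 in complex V, beside -0.05 over all genes.

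One array carried most of the lean. Hemangioblast replicate 1 exceeded Hemangioblast replicate 2 in 55 of 73 members (75.3%), with a median log2 difference of 0.22. Over all genes the same comparison gave 44.7% and a median of -0.04. The corresponding median between the hCD4-titled arrays was -0.03 over the members. Hemangioblast replicate 1 was the highest of the 4 arrays for 43 of 73 members (58.9%), against 21.6% of all genes. The median difference from hCD4 replicates 1 and 2 was 0.25 and 0.18 for Hemangioblast replicate 1, and 0.02 and -0.05 for Hemangioblast replicate 2. Without Hemangioblast replicate 1 the median change became -0.03 over all members, -0.04 in complex I, -0.01 in complex III and -0.09 in complex V, while the all-gene median became 0.07. The members then lay below all genes, the reverse of their order with all 4 arrays. In complex II it stayed at 0.21.

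The shift between the Hemangioblast-titled arrays was found in several complexes. The median of replicate 1 minus replicate 2 was 0.26 in complex I, 0.34 in complex III, 0.15 in complex IV and 0.25 in complex V, but 0.01 in complex II. Among other mitochondrial lists it was 0.24 for import and chaperones and 0.14 for the mitochondrial ribosome, and -0.09 for the citrate cycle. The control probe sets placed along Gapdh gave a 3′ to 5′ intensity ratio of 1.33 on Hemangioblast replicate 1. The other arrays gave 1.03 (Hemangioblast replicate 2), 1.13 and 1.03 (hCD4 replicates 1 and 2). For actin the ratios were 1.63, 1.16, 1.36 and 1.12 in the same order, so both controls were highest on the array where the members were highest. The part of this ratio in the shift was not tested.

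**Figure D2:**
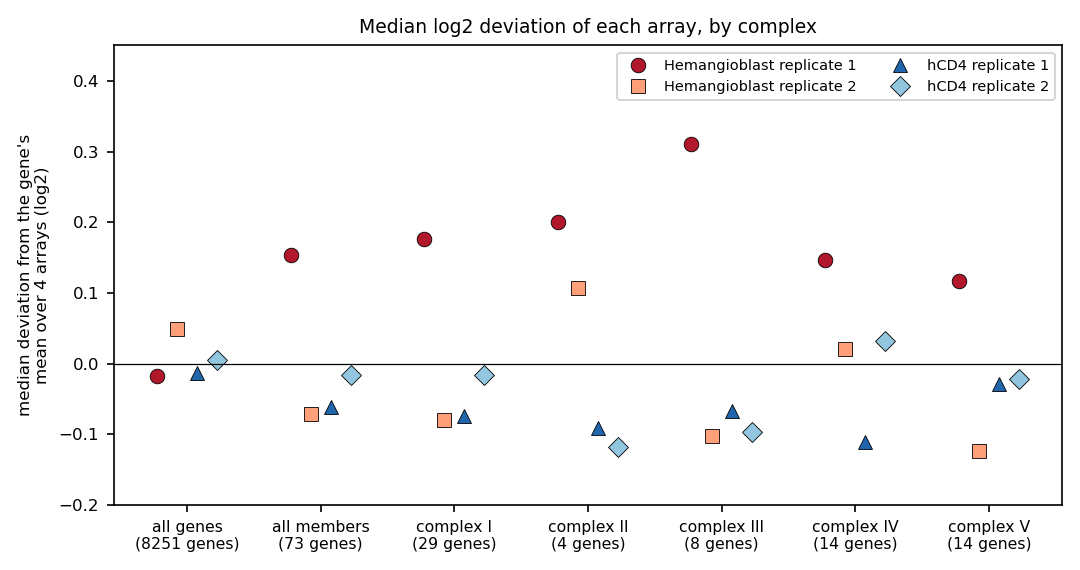
Median over genes of each array's log2 deviation from the gene's mean over the 4 arrays, for all genes, all members and 5 complexes; each symbol is 1 array. Hemangioblast replicate 1 lies highest in every member set shown, at 0.15 over all members against -0.02 over all genes, and among the complexes shown Hemangioblast replicate 2 lies above both hCD4-titled arrays in complex II alone.

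Complex I oxidises NADH and is the largest complex of the chain. Of its 29 measured genes, 0 passed the threshold, 23 had a positive and 6 a negative change. With 1 probe set for each gene, the largest change of the 73 was that of Ndufv3, an accessory subunit of the NADH-binding module. Its scaled intensity was 1149.5 and 849.6 in the Hemangioblast-titled arrays and 497 and 615 in the hCD4-titled arrays. Every Hemangioblast-titled value exceeded both others, with a log2 change of 0.82 (SE 0.20, 95% interval 0.36 to 1.28) and an adjusted p of 0.0620. It passed the threshold when 1 in place of 16 was added before the logarithm (adjusted p = 0.0441), when dim probe sets were left out (0.0205), and without Hemangioblast replicate 2 (0.0342). It fell short under the other settings. The adjusted p was 0.0551 with a replicate block, 0.0633 with quantile normalisation and 0.0764 with 64 added. It was 0.180 with median scaling, 0.168 with no scaling and 0.236 without the intensity trend. Without Hemangioblast replicate 1 the change was 0.61 (adjusted p = 0.185), and without hCD4 replicate 1 or 2 the adjusted p was 0.284 or 0.159.

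Ndufa3 and Ndufa6, accessory subunits of the complex, also had no overlap between groups. Ndufa3 gave 1301 and 1138 against 898 and 828, with 0.49 as the log2 change (SE 0.15, adjusted p = 0.142). Its other probe set gave 274 and 255 against 214 and 195, so both rank the arrays in the same group order. Ndufa6 gave 976 and 689.7 against 557 and 586, a log2 change of 0.51 (SE 0.20, adjusted p = 0.241). Here the Hemangioblast-titled arrays differed from each other by more than the lower of them differed from the hCD4-titled arrays.

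Among the core subunits, which carry the redox centres or sit beside them, directions were mixed. Ndufs3 gave 1130.2 and 988 against 933 and 753, with a log2 change of 0.33 (SE 0.17, adjusted p = 0.413). Ndufs1, which carries iron-sulfur clusters, gave 783 and 885 against 759.6 and 779.9, a change of 0.11 (SE 0.16, adjusted p = 0.831). Ndufv1, which binds NADH and FMN, ran the other way, at 1964 and 2011 against 2127 and 2682, a change of -0.26 (SE 0.16, adjusted p = 0.494). The groups did not overlap for Ndufs3, Ndufs1 or Ndufv1, yet none of the 3 passed the threshold. Ndufb9 (higher) and Ndufc2 (lower) complete the complex I genes without overlap, 6 of 29 on the high side and 2 of 29 on the low side. Over all genes these shares were 24.5% and 22.0%. Ndufb9 and Ndufc2 were named after their values were seen.

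Complex II is succinate dehydrogenase, also an enzyme of the citrate cycle, and all 4 of its genes had positive changes without any passing the threshold. Sdha, the flavoprotein that oxidises succinate, gave 288 and 286 against 229 and 154, for a log2 change of 0.57 (SE 0.25, 95% interval -0.01 to 1.15, adjusted p = 0.317). The hCD4-titled arrays were lower and differed between themselves far more than the Hemangioblast-titled arrays did. Sdhb, the iron-sulfur subunit, gave 1838 and 1391 against 1344 and 1481, so its groups overlapped (change 0.18, SE 0.17, adjusted p = 0.719). The membrane anchors Sdhc (1979 and 2013 against 1655 and 1792) and Sdhd (2147 and 2124 against 1951 and 1742) did not overlap. With Sdha, 3 of the 4 genes were higher without overlap, against 24.5% of all genes. Both anchors had a log2 change of 0.21 (SE 0.14), with adjusted p-values of 0.544 and 0.553.

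Complex III passes electrons from ubiquinol to cytochrome c. Of its 8 genes 6 had positive and 2 negative changes, and 0 passed the threshold. The core protein gene Uqcrc2 gave 959.7 and 724 against 612 and 607, for a log2 change of 0.44 (SE 0.18, 95% interval 0.02 to 0.86, adjusted p = 0.277). The small subunit gene Uqcrb gave 1719.9 and 1416 against 1282 and 1112, a change of 0.38 (SE 0.16, adjusted p = 0.295). These 2 of 8 were the complex III genes whose groups did not overlap, both higher, against 24.5% of all genes on the high side. In both the highest array was Hemangioblast replicate 1. Uqcrq and Uqcr10, also small subunits, had changes of 0.23 and 0.21 with overlapping groups. Uqcrc1, the other core protein, gave 2297 and 1967 against 2089 and 2368, a change of -0.06 (SE 0.15). Cyc1, the cytochrome c1 subunit, gave 3522 and 3793 against 3729 and 3804, a change of -0.04 with a 95% interval from -0.35 to 0.27.

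Cytochrome c, the mobile carrier between complexes III and IV and a known trigger of caspase activation when released, had lower values in the Hemangioblast-titled arrays. Cycs gave 434 and 387 against 517 and 525. The groups did not overlap, and the log2 change was -0.33 (SE 0.18, 95% interval -0.74 to 0.07, adjusted p = 0.418). Its direction was negative under all scalings tried, from -0.42 with median scaling to -0.31 with no scaling.

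Complex IV, cytochrome c oxidase, held the only member probe set past the threshold. Of its 14 genes, 8 had positive and 6 negative changes. Cox6b2 encodes an isoform of subunit VIb best known from testis, and its 3 probe sets were all higher in the Hemangioblast-titled arrays. The brightest, with the suffix f_at, gave 1423 and 1199.6 against 905 and 749, for a log2 change of 0.66 (SE 0.17, 95% interval 0.27 to 1.05) that missed the threshold (adjusted p = 0.0764). The probe set with the suffix i_at gave 208 and 317 against 86.8 and 41.7, a change of 1.83 (SE 0.37, 95% interval 0.99 to 2.67) with an adjusted p of 0.0299. The probe set with the suffix r_at gave 48.9 and 32.1 against 29.0 and 17.9, a change of 0.52 (SE 0.37, adjusted p = 0.581).

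The groups did not overlap for any of the 3 Cox6b2 probe sets, but their sizes of change differed widely, and the i_at probe set was more than 2-fold apart in all 4 pairs of arrays. The suffixes of these names mark, in the maker's convention, probe sets whose probes are incomplete or can match related transcripts, so the gene behind each signal is uncertain. The same holds for 17 of the 73 representative probe sets, among them those of Ndufa3, Uqcrb, Uqcrc2, Cox4i1, Cox6a1 and Cox6b1. The call of the i_at probe set was lost with no scaling (adjusted p = 0.0792), without the intensity trend (0.100), without Hemangioblast replicate 2 (0.168) and without hCD4 replicate 2 (0.145). Cox6b1, the widely expressed isoform, gave 147 and 110.2 against 119 and 174, with overlapping groups and a change of -0.16 (SE 0.30, adjusted p = 0.882). The fitted changes of Cox6b2 and Cox6b1 thus differed by 0.81, and this difference was not tested.

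**Figure D3:**
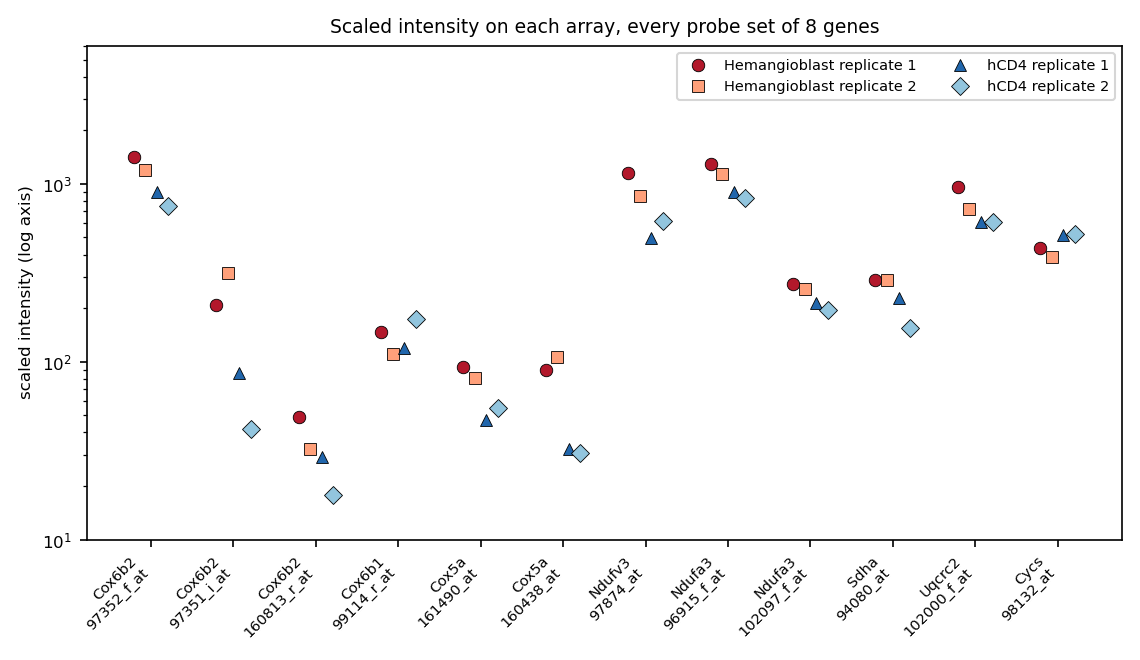
Scaled intensity (log axis) on each of the 4 arrays for every probe set of 8 member genes, with 1 symbol for each array. The 3 probe sets of Cox6b2 and both of Cox5a and Ndufa3 show both Hemangioblast-titled arrays above both hCD4-titled arrays, Cox6b1 shows overlap, and Cycs shows the reverse order; heights of different probe sets are not comparable.

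The other subunits of complex IV with higher values and no overlap on the representative probe set were Cox4i1, Cox5a, Cox5b and Cox6a1. These are nuclear-encoded subunits around the catalytic core. With Cox6b2, 5 of 14 genes were higher without overlap and 2 of 14 lower, against 24.5% and 22.0% of all genes. Cox6c, Cox6a2 and Cox7b had positive changes of 0.08, 0.07 and 0.01 with overlapping groups. Cox4i1 gave 216 and 263 against 177 and 140.2, a log2 change of 0.55 (SE 0.25, adjusted p = 0.337). Its other probe set gave 156 and 218 against 143 and 209, with overlap and a change of 0.08. The separation of the groups in Cox4i1 thus held on the probe set with the suffix f_at and not on the one without it. Cox5a gave 93.0 and 81.4 against 47.3 and 54.6 on one probe set, a change of 0.62 (SE 0.32, adjusted p = 0.400). Its other probe set gave 89.4 and 105.7 against 32.5 and 30.5, a change of 1.25 (SE 0.32, adjusted p = 0.0757). Both Cox5a probe sets ranked the groups the same way, and the latter was more than 2-fold apart in all 4 pairs of arrays. Both were dim, among the lowest 25% by mean that the dim-filtered setting left out. The size of change at such levels depended on the added constant. For the latter probe set it was 1.60 with 1 added and 0.76 with 64 added. Cox5b gave 2872 and 2603 against 2403 and 2103, a change of 0.28 (SE 0.15, adjusted p = 0.413).

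In the other isoform sets of complex IV, subunits VIa, VIIa and VIII, no isoform passed the threshold. Cox6a1, the widely expressed isoform of subunit VIa, gave 3599 and 2909 against 2750.5 and 2601, a log2 change of 0.27 (SE 0.15). The muscle isoform Cox6a2 had a change of 0.07 (SE 0.29), which became -0.00274 with median scaling. Cox7a1, a muscle isoform, gave 192 and 209 against 257 and 229, a change of -0.26 (SE 0.23) without overlap, and its counterpart Cox7a2 a change of -0.06 (SE 0.18). Cox8a, Cox8b and Cox8c had changes of -0.10, -0.05 and -0.07, and Cox8a was the one of the 3 without overlap. The markers of muscle, in which Cox6a2, Cox7a1 and Cox8b are used, had 0 of 7 genes past the threshold, with 2 positive and 5 negative changes. The largest was that of Myl7, at 69.7 and 81.9 against 165 and 197 (change -1.10, SE 0.29, adjusted p = 0.0774). The summed intensity of the muscle markers was 2237 and 2930 against 2683 and 2662, of which Actc1 alone gave 1442 and 1959 against 1695 and 1501.

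Changes in complex V were small. Of its 14 genes 8 had positive and 6 negative changes, running from -0.24 (Atp5k, the e subunit) to 0.21 (Atp5a1, the alpha subunit of the catalytic head). All 14 intervals lay within 2-fold and 9 within 1.5-fold. Atp5a1 gave 2798 and 3235 against 2959 and 2269, with the lowest value on hCD4 replicate 2. Atp5md, a small membrane subunit, gave 5320.1 and 4059 against 4034 and 4369.6, a change of 0.15 (SE 0.17), with 1 high array, Hemangioblast replicate 1. Atp5c1, the gamma subunit of the rotor shaft, gave 1649 and 1882 against 1777 and 1938, a change of -0.07 (SE 0.15). The rotor ring genes Atp5g1 and Atp5g2, which encode the same mature subunit c, had changes of -0.07 and -0.01 on the representative probe sets and of 0.28 and 0.35 on the others. Atp5e, the epsilon subunit, was the one gene of complex V without overlap, at 705 and 612 against 582 and 595 (change 0.15, SE 0.17, adjusted p = 0.756). This was 1 of 14 genes, against 24.5% of all genes on the high side.

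The assembly class held changes of both signs. Ndufaf4, an assembly factor of complex I, gave 109.8 and 151 against 231 and 165, without overlap and with the lowest change of all members, -0.54 (SE 0.29, adjusted p = 0.433). Its other probe set had a change of 0.34, in the opposite direction. Ndufaf1, which acts in the same assembly pathway, had a change of 0.13 (SE 0.24). Cox7a2l, a factor in joining complexes III and IV, gave 1639 and 1067 against 1417 and 1412, a change of -0.10 (SE 0.21), with the Hemangioblast-titled arrays on both sides of the others.

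Probe sets of one gene did not always point the same way. Of the 73 members 21 had more than 1 probe set, and in 12 of these the probe sets had changes of mixed sign. In the other 9, including Cox6b2, Cox5a, Cox4i1 and Ndufa3, all probe sets had the same sign.

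Genes around the respiratory chain were tested in the same fit, and 1 of them passed the threshold. Of 15 measured genes of respiratory assembly and electron entry, 10 had positive and 5 negative changes, with a median of 0.27. Of these 15 genes 1 passed the threshold, against 442 of 8251 genes in all (5.36%). The gene past the threshold was Etfb, a subunit of the flavoprotein that feeds electrons from fatty acid and amino acid oxidation into ubiquinone. Etfb gave 1135 and 848 against 507 and 455, a log2 change of 1.01 (SE 0.19, adjusted p = 0.0232). Both Hemangioblast-titled values were above both others. Its call was lost with median scaling (adjusted p = 0.0759), with no scaling (0.120), without the intensity trend (0.140), without Hemangioblast replicate 1 (0.0708), and without hCD4 replicate 1 (0.103) or 2 (0.176).

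None of the other 5 lists held a gene past the threshold, against 5.36% of all genes. Their median changes were 0.08 over 20 genes of the citrate cycle and pyruvate entry, 0.05 over 15 carriers and channels, and 0.00 over 61 genes of the mitochondrial ribosome. The median was -0.27 over 13 genes of mitochondrial genome maintenance and nuclear regulators, of which 11 had negative changes. It was -0.25 over 22 genes of import and chaperones, of which 17 had negative changes. The subunit genes thus lay above the all-gene median of 0.02 while the regulator and import lists lay below it. For the subunit genes this order turned without Hemangioblast replicate 1 (-0.03 against 0.07), and no difference between lists was tested.

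**Figure D4:**
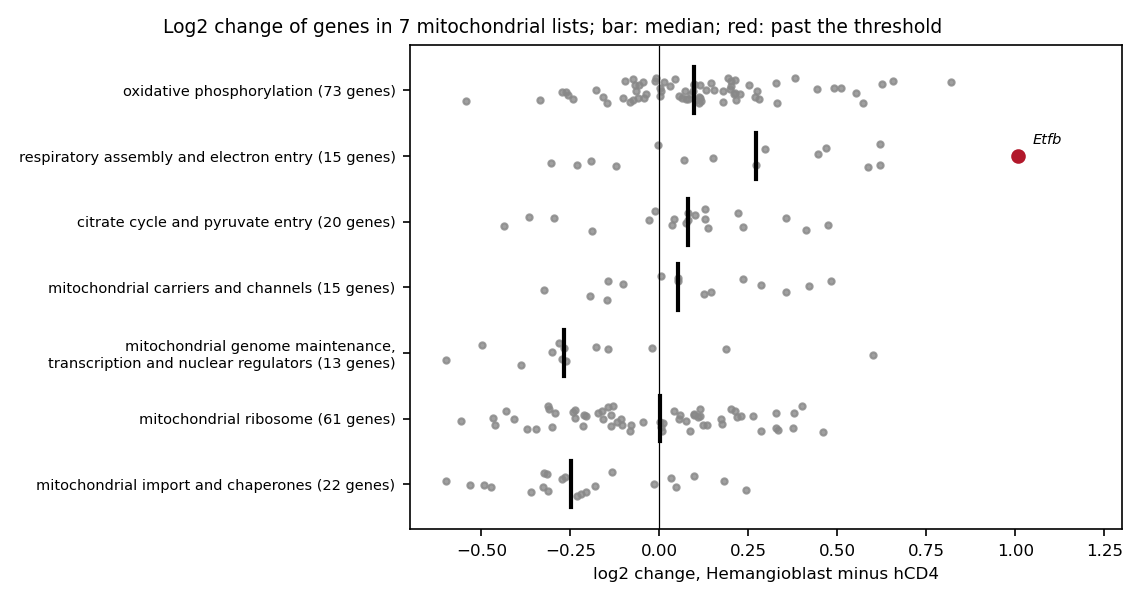
Log2 change (Hemangioblast-titled minus hCD4-titled arrays) of each gene in 7 mitochondrial lists; black bars are medians and the red point marks the gene past the adjusted threshold. Etfb is the single red point, and the medians run from -0.27 for genome maintenance and regulators to 0.27 for respiratory assembly and electron entry.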

How the data were processed

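Total RNA (TRIzol, 20 µg, no amplification step per the labels' protocols) was labelled with biotin and hybridised to 4 arrays. The values are linear intensities as deposited by the authors, 1 per probe set; their software and scaling: not given in the sources used here, and 0 columns were unmapped. Gene symbols came from the platform annotation. The 66 control probe sets were left out. Arrays were scaled to the mean of their trimmed means (2% off each end), 16 was added, and log2 taken. limma 3.58.1 (R 4.3.3; lmFit, eBayes with an intensity trend, 2 residual and 6.18 prior degrees of freedom) tested Hemangioblast-titled against hCD4-titled arrays over 12422 probe sets, two-sided, with Benjamini-Hochberg adjustment and a threshold of 0.05. A gene is represented by its probe set with the highest mean log2 value. Counts and medians were made with Python 3.11.15 and figures with matplotlib 3.10.9. The fit was tested on simulated data. Background shares use the same call rules over all genes.

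Named genes were members past the threshold, up to 4 members in each complex with the smallest unadjusted p, fixed paralogs and core subunits (39 in all), and genes of other lists past the threshold. The members and lists were chosen with earlier results of these data known. Promoters and builds are RefSeq's. Same-numbered replicates did not deviate together (correlation -0.00781 over probe sets), so the main fit has no block. Alternatives were another added constant, scaling or normalisation, no intensity trend, dim probe sets (lowest 25% by mean) left out, a replicate block, the mean of a gene's probe sets, and each array left out.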

Additional observations from a re-analysis of the deposited data

How the results depend on the processing

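The count of member genes past the threshold (0) became 1 with an added constant of 1, 2 with dim probe sets left out, 1 with the replicate block, and 1 when any probe set of a gene counted, an alternative chosen after seeing the data. It was 0 to 1 with single arrays left out. The count of member probe sets (1) became 2 with an added constant of 1, 0 with no scaling, 0 without the intensity trend, 3 with dim probe sets left out and 2 with the replicate block, and ranged from 0 to 1 with single arrays left out. The count over all probe sets (556) became 272 with no scaling, 220 without the trend and 893 with dim probe sets left out, ranged from 219 to 517 with single arrays left out, and was 710 with the replicate block. The genes that gained a call were Ndufv3 and Cox6b2. The lone array left in a group is assumed to vary like the other group.

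The median change of complex II (0.21) was 0.13 with median scaling and 0.29 with quantile normalisation, and 0.21 to 0.30 with single arrays left out. That of complex IV (0.04) ranged from -0.0507 to 0.171 with single arrays left out. That of the assembly class (-0.10) was -0.18 with median scaling, -0.0727 with no scaling and -0.0392 with quantile normalisation, and -0.337 to 0.0113 with single arrays left out. Over all members the median stayed between 0.01 (median scaling) and 0.14 (quantile normalisation) under the scaling alternatives. Of the 39 named members, 1 changed sign with median scaling, 1 with no scaling, 5 with quantile normalisation, and 1 to 8 with single arrays left out, none of them past the threshold. The cause of these shifts was not tested.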
